A study of Sus scrofa with 12 samples.

Results

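Glycolytic enzymes were followed in pig skeletal muscle over the first weeks of life through 10 genes of the main line of the pathway: GPI, PFKM, ALDOA, TPI1, GAPDH, PGK1, PGAM2, ENO3, LDHA and LDHB. They were chosen by name, and every probe set (a group of short probes that reads 1 transcript) whose symbol in the array's gene table is one of these names was taken. The table holds 9 of the 10, out of 6765 genes with a symbol, and ALDOA was not analysed here. The 9 genes have 22 probe sets, of which 14 read GAPDH, and 9 of those 14 are control probe sets of the array. The samples were skeletal muscle taken within 24 hours of birth (day 0) and at 7, 14 and 21 days of age, with 3 biological replicates per age on 12 Affymetrix porcine arrays. The labels name no treatment or genotype, so the groups differ in age, and which muscle was sampled and the breed are not given in the sources used here.

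Glycolysis splits glucose into pyruvate in the cytosol and yields ATP without oxygen. Fast muscle fibres rely on it for short bursts of force and hold large amounts of its enzymes, several of them as muscle forms encoded by genes of their own (PFKM, PGAM2 and ENO3). Lactate dehydrogenase turns pyruvate into lactate and back. Its A subunit prevails in fast muscle and its B subunit in heart and slow muscle. No sequences are shown, since the sources used here held none for these genes.

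Between birth and day 21, 7 of the 9 genes rose, by 1.48 to 4.06-fold, and none fell (4.90% of all probe sets did). They were GPI, PFKM, TPI1, PGK1, PGAM2, ENO3 and LDHA, whereas the brightest GAPDH probe set and LDHB did not pass the test. GAPDH passed with its probe sets averaged. Of all 14399 probe sets tested, 6.61% rose between these ages. The first week held 6 rises (all of these but ENO3) and 0 falls among the 9 genes, against 5.76% of all probe sets rising and 9.40% changing in either direction. Between days 7 and 14, days 14 and 21, and days 7 and 21, 0 of the 9 passed, where 0.00694%, 0% and 0.00694% of all probe sets did, so these counts say nothing particular about the 9 genes. In 6 of the 9 genes the day 7 arrays all lay above the day 0 arrays and in 1 (LDHB) all below, against 14.9% and 13.7% of all probe sets. At day 21 they lay above in 8 of 9, against 15.3%. The median change of the 9 genes was 1.18 on the log2 scale from day 0 to day 7 and 1.26 from day 0 to day 21. The medians of all probe sets tested were 0.00 and 0.02. The 9 genes are bright, and over the brightest 1% of probe sets the medians were 0.12 and 0.20. Calls are those of limma with a Benjamini-Hochberg adjusted p under 0.05 over all probe sets tested. A gene is represented by the brightest of its tested probe sets. Changes are log2 differences of mean log2 signal ± SE, with n = 3 arrays per age.

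The day 0 arrays stood apart in control measures. The log2 ratio of 3' to 5' signal of the poly-A RNAs spiked into each sample, a measure of labelling length, averaged 0.84 ± 0.56 (SD, n = 3) over the newborn arrays, with 1.49 in replicate 2, and 0.30 ± 0.12 (SD, n = 9) over the older ones. Control RNAs added at hybridization in fixed amount gave a mean log2 signal of 12.20 ± 0.09 (SD, n = 3) in the newborn arrays against 12.55 ± 0.13 (SD, n = 9) in the rest. For the muscle's own GAPDH transcript the same kind of ratio was 0.30 ± 0.16 (SD, n = 3) in the newborn arrays and 0.25 ± 0.04 (SD, n = 9) in the rest. The part of these measures in the changes below was not tested except by the settings named beside them. The tissue label was checked against markers. Of 10 skeletal muscle markers 8 were measured, with a summed signal of 222044 to 302377 at day 0 and 281509 to 369984 at day 21. In the first week 0 of these 8 rose and 1 (DES, desmin) fell, where 5.76% of all probe sets rose and 3.64% fell. By day 21, 1 rose and 0 fell, where 6.61% of all probe sets rose and 4.90% fell. Their median changes were 0.23 in the first week and 0.37 by day 21. Over all probe sets tested the medians were 0.00 and 0.02, and over the brightest 1% they were 0.12 and 0.20. The heart markers NPPA and NPPB were too dim to be tested. In whole muscle, fewer cells of a type and less RNA per cell cannot be told apart.

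The preparatory steps come first. GPI, which converts glucose 6-phosphate to fructose 6-phosphate, had signals of 4320.4, 6268 and 13029 in the 3 day 0 arrays. Its signals were 31240.1, 30908 and 27239 at day 7, 22868, 38516 and 25936 at day 14, and 26845, 25854 and 34091 at day 21. Every later array was above every day 0 array, and day 0 replicate 3 was the highest of its age. GPI rose 4.21-fold in the first week (2.07 ± 0.31, limma adjusted p = 0.00233) and stood 4.06-fold above day 0 at day 21 (2.02 ± 0.31, limma adjusted p = 0.00222). Both calls held under all 24 alternatives tried, where the log2 change ran from 1.72 to 2.51 for the first week and from 1.64 to 2.46 for the 3 weeks.

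PFKM, the muscle form of phosphofructokinase, catalyses the committed step of the pathway. Its signals were 9961, 6246 and 17031 at day 0, 27715, 24163 and 24883 at day 7, 21755, 33986 and 28110.2 at day 14, and 27506, 24275 and 33873 at day 21. The day 0 values again lay below all 9 later ones. The rise was 2.51-fold in the first week (1.33 ± 0.28, limma adjusted p = 0.0136) and 2.77-fold by day 21 (1.47 ± 0.28, limma adjusted p = 0.00618). The first-week call was lost without day 7 replicate 1 (limma adjusted p = 0.0540), in a fit of the 6 arrays compared (0.0522), and after adjustment for the poly-A spikes, where the change was 0.76 (0.211). Over all 24 alternatives this adjusted p ran from 0.000745 to 0.211.

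TPI1, triose phosphate isomerase, interconverts the 3-carbon sugars made when aldolase splits the 6-carbon sugar. It had signals of 10784, 9112 and 20156 at day 0, 35473, 33910.5 and 29893 at day 7, 31698, 39916 and 30928 at day 14, and 28065, 34010.5 and 43053 at day 21. These groups did not overlap between day 0 and any later age. TPI1 rose 2.63-fold in the first week (1.39 ± 0.25, limma adjusted p = 0.00554) and was 2.75-fold above day 0 at day 21 (1.46 ± 0.25, limma adjusted p = 0.00342). After adjustment for the poly-A spikes the first-week change was 1.06 (limma adjusted p = 0.102, within 0.00014 to 0.102 over the 24 alternatives).

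**Figure D1:**
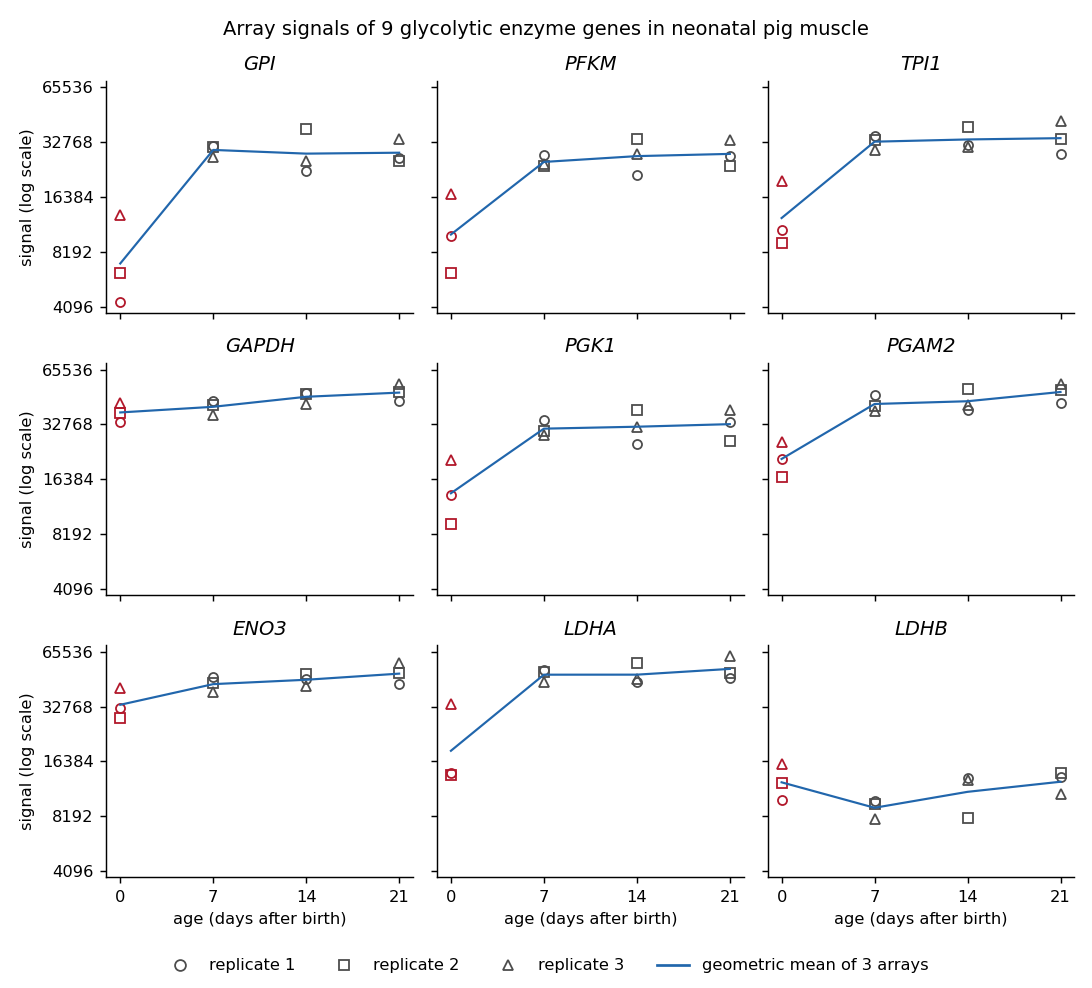
Array signals of the 9 glycolytic enzyme genes (1 probe set per gene, log scale) against age in days; each symbol is 1 array, red at day 0, its shape gives the replicate number, and the line joins the geometric means of 3 arrays. In 6 genes all 3 day 0 arrays lie below all 9 later arrays, and GAPDH, ENO3 and LDHB are the exceptions. The share of all probe sets that do so was not taken. Against day 7 alone 14.9% of all probe sets tested lie apart upwards, and against day 21 alone 15.3%.

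The payoff steps yield ATP and NADH. PGK1, phosphoglycerate kinase, makes the first ATP. It had signals of 13332, 9246 and 20926 at day 0, 34477, 30151 and 28836 at day 7, 25723, 39301 and 31907 at day 14, and 33663, 26692 and 39581 at day 21. No later array reached down to the day 0 values. PGK1 rose 2.26-fold in the first week (1.18 ± 0.25, limma adjusted p = 0.0138) and 2.40-fold over 3 weeks (1.26 ± 0.25, limma adjusted p = 0.00734). Without day 7 replicate 1 the first-week change was 1.10 (limma adjusted p = 0.0576). After adjustment for the poly-A spikes it was 0.72 (0.208, the end of a range from 0.00115 over the 24 alternatives), and the change to day 21 was 0.92 (0.0550, the end of a range from 0.000715).

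PGAM2 is the muscle phosphoglycerate mutase, which moves the phosphate group before the enolase step. Its signals were 21288, 16910 and 26349 at day 0, 47518, 41590 and 38694 at day 7, 39175, 51614 and 41974 at day 14, and 43106, 50958 and 54908 at day 21. Its day 0 arrays spread less than those of GPI, PFKM and LDHA (SD of log2 signal 0.32, against 0.81, 0.72 and 0.73). PGAM2 had the lowest adjusted p of the 9 genes for day 21 against day 0 (0.00136 in limma) at a 2.33-fold difference (1.22 ± 0.17). Its first-week rise was 2.01-fold (95% interval 1.56 to 2.58, limma adjusted p = 0.0044). Adjusted for the poly-A spikes the log2 change was 0.75 (0.0834, within 0.000949 to 0.0834 over the 24 alternatives).

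ENO3, the muscle enolase, had signals of 32369, 28266 and 41232 at day 0. At day 7 they were 47637, 44088 and 39329, at day 14 they were 46301, 49398 and 42627, and at day 21 they were 43350 (replicate 1), 50157 and 56589. Day 0 replicate 3 lay above day 7 replicate 3, so the first-week groups overlap, while those of day 0 and day 21 do not. The first-week change was 0.38 ± 0.15 (limma adjusted p = 0.135) and that to day 21 was 0.57 ± 0.15, or 1.48-fold (limma adjusted p = 0.0275). The call at day 21 was lost under 10 of 24 alternatives, among them leaving out day 0 replicate 1 (limma adjusted p = 0.0629), day 0 replicate 2 (0.0967), the second array of day 21 (0.0667) or the third (0.113). Its change was 0.19 (limma adjusted p = 0.294) after scaling to the hybridization controls, and over all alternatives the adjusted p ran from 0.00504 to 0.294.

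GAPDH oxidises glyceraldehyde 3-phosphate and makes NADH, and is often used as a reference gene. Its change depended on which of its probe sets was read. The brightest ordinary one had signals of 33836, 38010.2 and 43126 at day 0, 44285, 41931 and 36997 at day 7, 49036, 48153 and 42577 at day 14, and 44036, 49087 and 54494 at day 21. The first-week groups overlap, and the change was 0.10 ± 0.13 (limma adjusted p = 0.666) in that week and 0.36 ± 0.13 (limma adjusted p = 0.0855) by day 21. A second, less bright probe set had 8741, 10699 and 20477 at day 0, 30607, 25479 and 23769 at day 7, 23260.3, 34157 and 22310 at day 14, and 24979, 25365 and 35626 at day 21. It rose 2.13-fold in the first week (1.09 ± 0.27, limma adjusted p = 0.0268) and 2.28-fold by day 21 (1.19 ± 0.27, limma adjusted p = 0.0149). The first-week call on that probe set was lost without day 0 replicate 1 (0.0773) or 2 (0.0862) or any day 7 array (0.0570 to 0.0974). Its day 21 call did not pass when day 0 replicate 2 (0.0526) or day 21 replicate 3 (0.0660) was left out. Over the alternatives these adjusted p-values ran from 0.00122 to 0.201 and from 0.000737 to 0.0767.

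A dim GAPDH probe set had signals of 296.9, 157.8 and 397.4 at day 0 and 889.2, 886.2 and 1054 at day 21. It rose 2.66-fold in the first week (1.41 ± 0.30, limma adjusted p = 0.0144; 0.0570 without day 7 replicate 3, and 0.218 adjusted for the spikes, in a range from 0.0038) and 3.55-fold by day 21 (1.83 ± 0.30, limma adjusted p = 0.00322). Another bright one was at 0.42 ± 0.13 by day 21 (limma adjusted p = 0.0518), and the last ordinary one was too dim to be tested. The 9 control probe sets were higher at day 21 than at day 0 by 0.34 to 0.60 on the log2 scale (median 0.50, no test). In 7 of the 9 these ages did not overlap, where 15.3% of all probe sets tested lay apart upwards. All 9 read GAPDH, so they are not separate observations. With the tested probe sets of GAPDH averaged, the change was 0.71 ± 0.17 in the first week (limma adjusted p = 0.0256) and 0.95 ± 0.17 by day 21 (limma adjusted p = 0.00569). The brightest probe set alone passed at day 21 without day 0 replicate 3 (0.45 ± 0.13, limma adjusted p = 0.0344). The highest signal of any probe set on an array lay between 45256 and 72392.

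The log2 signal of the less bright GAPDH probe set minus that of the brightest, within an array, was -1.62 ± 0.48 (SD, n = 3) in the newborn arrays and -0.75 ± 0.20 (SD, n = 9) in the rest. This shift of 0.87 is given as a description, since the pair was picked because its changes differed. Its permutation p is not read and served only to adjust that of LDHA minus LDHB below. A like spread appeared in PYGM, the muscle glycogen phosphorylase that feeds glucose phosphate into the pathway. Its 4 probe sets rose by 1.34 to 2.99 over the 3 weeks, the less bright pair by 2.48 and 2.99 and the brighter pair by 1.34 and 1.44 (limma adjusted p-values from 0.00234 to 0.00435). Mammalian genomes hold many processed copies of GAPDH, and reads of related transcripts cannot be told apart here.

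**Figure D2:**
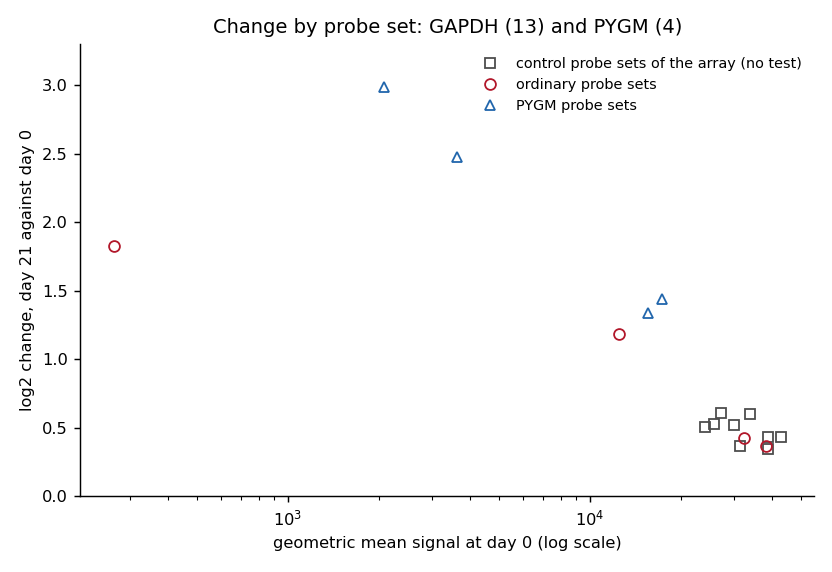
Log2 change from day 0 to day 21 (vertical axis) against the geometric mean signal at day 0 (log scale) for 13 GAPDH probe sets and 4 PYGM probe sets; each symbol is 1 probe set, squares are the control probe sets of the array, circles the ordinary GAPDH probe sets and triangles PYGM. The GAPDH changes run from 0.34 to 1.83, and signals of different probe sets are not amounts that can be compared. The day 0 level enters both axes.

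At the final step the probe sets of the 2 lactate dehydrogenase subunits differed. LDHA had signals of 14088, 13878 and 33655 at day 0, 52073, 50742 and 44739 at day 7, 44633, 57149 and 46402 at day 14, and 47006, 50352 and 62224 at day 21. Day 0 replicate 3 lay at more than the level of the other day 0 arrays combined and still below every later array. LDHA rose 2.62-fold in the first week (1.39 ± 0.27, limma adjusted p = 0.00829) and 2.82-fold by day 21 (1.49 ± 0.27, limma adjusted p = 0.0044). Without day 0 replicate 3 the first-week change was 1.81, and adjusted for the poly-A spikes it was 1.06 (0.134, within 4.67e-05 to 0.134 over the 24 alternatives).

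LDHB had signals of 10018, 12509 and 15861 at day 0, 9968, 9575 and 7923 at day 7, 13354, 8044 and 12888 at day 14, and 13400.5, 14061 and 10779 at day 21. The day 7 arrays lay below all day 0 arrays, by a small margin, and below all day 21 arrays. The first-week change was -0.46 ± 0.21 (limma adjusted p = 0.194) and that between days 7 and 21 was 0.48 ± 0.21 (limma adjusted p = 0.733). The change to day 21 was 0.01 ± 0.21 (95% interval -0.45 to 0.47, limma adjusted p = 0.981). After scaling to the hybridization controls its first-week change was -0.77 (limma adjusted p = 0.0478, in a range up to 0.416) and its change to day 21 was -0.37 (limma adjusted p = 0.288). RefSeq's table for the pig assembly Sscrofa11.1 lists 2 genes under the symbol LDHB, and the array's table points to 1 of them. Which of them the probes read was not tested.

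The log2 signal of LDHA minus that of LDHB within each array shows whether these 2 probe sets changed unequally. It was 0.49, 0.15 and 1.09 in the 3 day 0 arrays and between 1.74 and 2.83 in the 9 later ones. The shift from 0.58 ± 0.47 (SD, n = 3) to 2.21 ± 0.40 (SD, n = 9) was 1.63 (exact two-sided permutation p = 0.00455, the smallest that 220 splits allow; 0.00909 adjusted over this and the GAPDH pair). The shift ran from 1.42 to 1.89 when each array was left out in turn. It was not taken with adjustment for the poly-A spikes. A pair of probe sets of 1 gene, GAPDH, also shifted against each other, by 0.87. Such a shift alone therefore cannot tell a difference between genes from one between probe sets. At day 7 the 3 arrays gave 2.43 ± 0.06 (SD, n = 3), at day 14 they gave 2.14 ± 0.60 (SD, n = 3) and at day 21 they gave 2.06 ± 0.41 (SD, n = 3). Among slow fibre genes, which share the B subunit's tissue, 1 of 8 rose by day 7 and 7 of 8 by day 21, with median changes of 0.30 and 0.88, where 5.76% and 6.61% of all probe sets rose. Their summed signal ran from 97395 to 156958 at day 0 and from 207580 to 247975 at day 21. Their part in the values of LDHB was not tested.

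**Figure D3:**
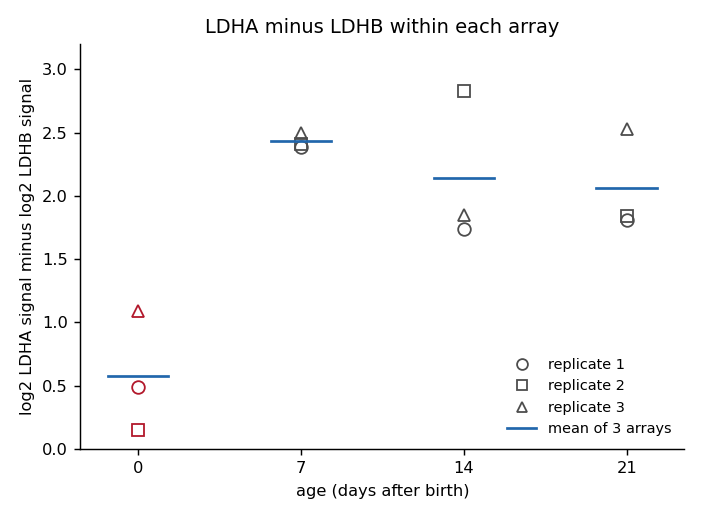
Log2 LDHA signal minus log2 LDHB signal within each array (vertical axis) against age in days; each symbol is 1 array, red at day 0, its shape gives the replicate number, and bars are means of 3 arrays. The day 0 arrays lie between 0.15 and 1.09 and the 9 later arrays between 1.74 and 2.83.

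After day 7 few changes were called in any gene. Between days 7 and 14 the 9 genes changed by -0.07 to 0.29, and between days 14 and 21 by 0.02 to 0.18. In both weeks 0 of the 9 passed limma's test, 0 had an unadjusted p under 0.05, and 0.00694% and 0% of all probe sets were called in either direction. All 9 genes overlapped between the ages in both weeks, where 6.81% of all probe sets lay apart upwards and 7.33% downwards in the second week, and 4.41% and 4.03% in the third. The 95% interval for GPI, the widest of the 9 genes, ran from -0.74 to 0.60 in the second week and from -0.65 to 0.69 in the third. Changes within these intervals remain possible in GPI. The narrowest, for the brightest GAPDH probe set, ran from -0.09 to 0.46 in the second week and from -0.20 to 0.35 in the third. Between days 7 and 21, which involves no day 0 array, the changes ran from -0.05 (GPI) to 0.48 (LDHB), with 0 of 9 called by limma, 1 of 9 (LDHB) at an unadjusted p under 0.05 and 0.00694% of all probe sets called. LDHB was the 1 gene whose groups did not overlap (upwards), against 8.49% of all probe sets upwards and 7.57% downwards. Among the 9 later arrays the coefficient of variation of the signal ran from 10.9% for ENO3 to 16.6% for GPI in 8 of the 9 genes, and was 21.5% for LDHB. The order of the mean levels was day 0, 7, 14 and 21 from lowest to highest in PFKM, TPI1, GAPDH, PGK1, PGAM2, ENO3 and LDHA. Of the neighbouring ages in that order, days 0 and 7 differed in limma's test in PFKM, TPI1, PGK1, PGAM2 and LDHA, and the other neighbours in these 7 genes did not pass. In GPI, which also passed between days 0 and 7, the order was day 0, 14, 21 and 7, and in LDHB it was day 7, 14, 0 and 21.

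The test over all 4 ages (limma's F test) passed for 6 of 9 genes, against 8.88% of all probe sets: GPI, PFKM, TPI1, PGK1, PGAM2 and LDHA, with adjusted p-values from 0.00312 (PGAM2) to 0.0146 (PGK1). It was 0.0892 for ENO3, 0.21 for the bright GAPDH probe set and 0.364 for LDHB. Adjusted for the poly-A spikes, 0 of 9 passed. Without day 0 replicate 2 the F test passed for 4 genes. For this test and the next, shares of all probe sets were not taken under alternative settings. The first week's change exceeded the third week's in GPI alone by the test of that difference (2.06 ± 0.44, limma adjusted p = 0.0488), against 0.625% of all probe sets in this direction, 0.264% in the other and 0.889% in either. It did not pass in TPI1 (1.37 ± 0.35, 0.0809), PGAM2 (0.83 ± 0.24, 0.112) or LDHA (1.28 ± 0.38, 0.122). Without day 0 replicate 3 this difference passed for 6 of 9 genes, and without any one of the other 11 arrays for 0.

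**Figure D4:**
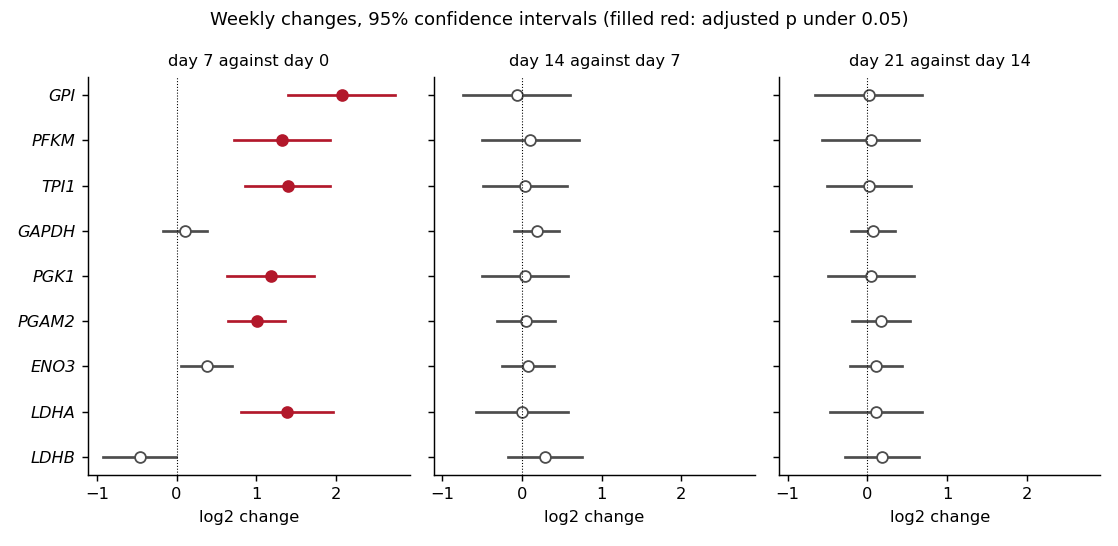
Log2 change per week for the 9 genes with 95% confidence intervals from limma, in 3 panels (day 7 against day 0, day 14 against day 7, day 21 against day 14); filled red points passed at an adjusted p under 0.05. The 6 passing changes are all in the first panel, and those of the other panels lie between -0.07 and 0.29.

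Most of the 9 genes were high in the same arrays. At day 0 replicate 3 was the highest array for 9 of 9 genes, and replicates 1 and 2 were the lowest for 3 and 6. At day 7 replicate 1 was highest for 9 of 9, at day 14 replicate 2 for 7 of 9, and at day 21 replicate 3 for 8 of 9. At days 14 and 21 LDHB was the exception, with its lowest signals in those same arrays, joined at day 14 by the bright GAPDH probe set, which was highest in replicate 1. The share of all probe sets highest in the arrays that were highest for most of the 9 genes was not taken. The highest signal of any probe set at each age also lay in those arrays. It was 59402 at day 0, 63775 at day 7, 70479 at day 14 and 72392 at day 21, so the pattern is not shown to be particular to these genes. The arrays highest for most genes also had the highest mean log2 signal of the hybridization controls of their age. These were 12.26 at day 0 (against 12.09 and 12.25), 12.62 at day 7 (12.50 and 12.40), 12.70 at day 14 (12.48 and 12.52) and 12.79 at day 21 (12.49 and 12.46). After scaling to these controls the median change of the 9 genes was 0.87 in the first week and 0.88 over 3 weeks, with all probe sets at -0.31 and -0.36. On that scale 6 of 9 genes rose in each comparison, where 2.49% of all probe sets rose in the first week and 2.76% by day 21.

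Other genes of sugar use were followed from a list of 45, of which 32 had a probe set and 26 were bright enough to test. By day 21, 9 of the 26 had risen and 0 had fallen, and in the first week 8 rose and 1 fell, beside backgrounds of 6.61% rising by day 21 and 5.76% rising and 3.64% falling in the first week. The median changes of the 26 were 0.44 by day 21 and 0.27 in the first week. Among genes at the entry from glycogen, PYGM rose 2.71-fold by day 21 (1.44 ± 0.24, limma adjusted p = 0.00297) and PGM1, phosphoglucomutase, 2.61-fold (1.39 ± 0.25, limma adjusted p = 0.00423). FBP2, the muscle fructose bisphosphatase that runs the PFKM step backwards, had signals of 864.3, 2652 and 5044 at day 0 and 9762, 11022 and 16910.5 at day 21. Its rise was 2.43 ± 0.49 on the log2 scale (limma adjusted p = 0.00816). GPD1, which draws triose phosphate towards glycerol phosphate, rose 7.29-fold (2.87 ± 0.42, limma adjusted p = 0.00161), from 1067, 1118 and 4640 (replicate 3) at day 0 to 14675, 10716 and 13640.4 at day 21.

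BPGM, which makes 2,3-bisphosphoglycerate and is known for its role in red blood cells, rose 3.63-fold (1.86 ± 0.32, limma adjusted p = 0.00345). Of 3 red cell genes tested, 2 rose (ALAS2 and HBM) and 1 fell (HBB) by day 21, where 6.61% of all probe sets rose and 4.90% fell. ALAS2, the first enzyme of red cell haem synthesis, had signals of 374.7, 228.4 and 477.3 at day 0 and of 1136, 681.7 and 974.4 at day 21. HBM, a globin gene, had 269.5, 242.3 and 254.3 at day 0 and 411.9, 383.9 and 531.4 at day 21. HBB, a globin chain, had signals of 2071, 1175 and 1036 at day 0 and of 697.6, 828.7 and 755.3 at day 21, and the part of red cells in the BPGM value was not tested. PC, pyruvate carboxylase, rose 3.17-fold (1.67 ± 0.34, limma adjusted p = 0.0082). It was dim, with signals of 138.7, 63.6 and 174.8 at day 0 and 419.3, 334.7 and 351.5 at day 21. Its day 0 signals lay near the mean signal of 90.28 below which probe sets were left out, so the fold is uncertain. Adjusted for the poly-A spikes its change was 1.06, and the call held under all 24 alternatives. LDHD, the D-lactate dehydrogenase, was 2.28-fold higher at day 21 (1.19 ± 0.29, limma adjusted p = 0.0183). Leaving out day 0 replicate 2 (0.0645), or day 21 replicate 1 (0.0688) or 3 (0.0794), ended that call, in a range of 0.00317 to 0.123. SLC16A3, the lactate exporter of fast fibres, was 2.10-fold higher (1.07 ± 0.30, limma adjusted p = 0.0361). That call was lost under 11 of 24 alternatives, among them without day 0 replicate 1 (0.0955) or 2 (0.0910), day 7 replicate 2 (0.0516) and day 21 replicate 1 (0.101) or 3 (0.147), in a range of 0.0174 to 0.147.

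ENO1, the enolase found in most tissues, rose 1.92-fold in the first week (0.94 ± 0.18, limma adjusted p = 0.00712; 0.0835 adjusted for the poly-A spikes), the week in which ENO3 did not pass. The difference between these 2 genes was not tested. Its signals were 4078, 3698 and 4860.5 at day 0, 8293, 8600 (replicate 2) and 7260.3 at day 7, and 5357, 6092 and 7838 at day 21. At day 21 it was at 0.60 ± 0.18 (limma adjusted p = 0.0413), a call lost under 16 of 24 alternatives (range 0.0237 to 0.339). Those include leaving out day 0 replicate 1 (0.0803) or 2 (0.121), any day 7 array (0.0522 to 0.0590), day 14 replicate 2 (0.0525) and day 21 replicate 2 (0.0736) or 3 (0.167). SLC2A3, a glucose transporter best known from neurons, rose in the first week (1.12 ± 0.29, limma adjusted p = 0.0324; lost under 9 of 24 alternatives, range 0.0189 to 0.166, including without any day 0 array (0.0552 to 0.0694) or day 7 replicate 2 or 3 (0.121 and 0.115)). It stood at 0.46 ± 0.29 by day 21 (0.328). MPC2, a subunit of the mitochondrial pyruvate carrier, was the gene that fell in the first week (-0.49 ± 0.13, limma adjusted p = 0.0314). It was named after its values were seen. Its call was lost under 10 of 24 alternatives (range 0.00598 to 0.0977), among them without day 0 replicate 2 (0.0523) or 3 (0.0560) or any day 7 array (0.0859 to 0.0969). Its partner MPC1 was at -0.11 ± 0.15 (limma adjusted p = 0.688). The muscle glucose transporter SLC2A4 was at 0.47 ± 0.36 by day 21 (limma adjusted p = 0.436) and HK1, a hexokinase, at -0.19 ± 0.25 (0.667). PFKL, the liver phosphofructokinase, was at -0.85 ± 0.29 (limma adjusted p = 0.0751), and PKM, pyruvate kinase, at 0.41 ± 0.18 (0.152). The PKM probe set was dim, with signals of 482.4, 583.5 and 507.7 at day 0 and 703.5, 592.4 and 799.1 at day 21. That of SLC2A4 had 218.2, 196.1 and 421.9 at day 0. How well these 2 probe sets read the main muscle transcripts was not tested.

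**Figure D5:**
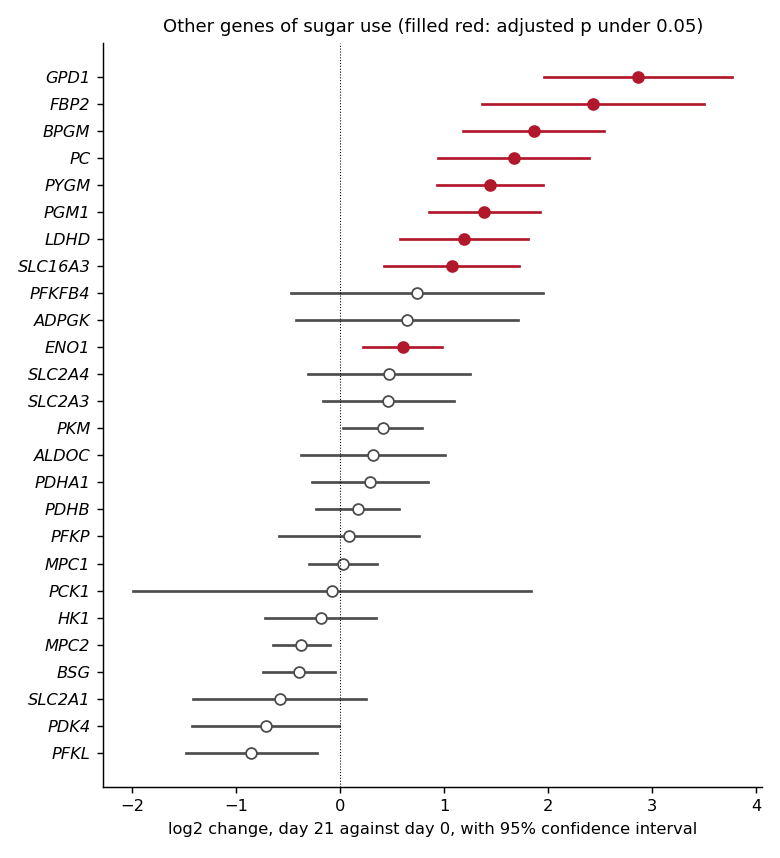
Log2 change from day 0 to day 21 for the 26 other genes of sugar use that were tested, with 95% confidence intervals from limma; filled red points passed at an adjusted p under 0.05. The 9 passing genes are all higher at day 21, from 0.60 in ENO1 to 2.87 in GPD1.

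The genes outside the 9 whose log2 signals followed the mean of the 9 most closely over the 12 arrays (each gene centred and scaled) were PYGM (Pearson r = 0.985), PGM1 (0.978), MACROD1 (0.976), BUD23 (0.971), GPD1 (0.967) and UBB (0.964), the highest of 5287 genes ranked. These are given as a description, since the arrays share the step between day 0 and later ages. Among markers of other cells in muscle, 2 of 5 endothelial genes and 2 of 3 smooth muscle genes rose in the first week, where 5.76% of all probe sets did. By day 21 it was 1 of 5 and 0 of 3, where 6.61% of all probe sets rose. The summed endothelial signal was 3623 to 4148 at day 0, 6811 to 7575 at day 7 and 4711 to 7267 at day 21. The summed smooth muscle signal was 7293 to 10989 at day 0, 17050 to 18537 at day 7 and 8752 to 12115 at day 21, and the median change of its genes by day 21 was -0.03. None of 3 macrophage, 3 fibroblast and 2 fat cell genes passed at day 7 or day 21 against day 0. Of all probe sets 9.40% and 11.5% passed in these comparisons. The part of these cells in the changes of the glycolytic genes was not tested.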

How the data were processed

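Total RNA from 12 muscle samples was hybridized to Affymetrix porcine arrays. The authors deposited intensity values on a linear scale, and the submitters' processing notes name MAS5 without a version; genome build and detection calls were not used here. Signals were taken as log2 without further normalization. Of 24123 probe sets, 124 controls and the lowest 40% of the rest by mean log2 signal (limit 90.28) were left out, which left 14399. Symbols came from the array's gene table: 10099 probe sets carry 1, 198 several and 13826 none. All 9 genes matched RefSeq by Entrez identifier. The model, run in R 4.3.3 with limma 3.58.1, took 1 mean per age from the 12 arrays together, and eBayes used a variance trend. The fit was tested on simulated data. LDHA minus LDHB was tested by exact permutation. A pair of GAPDH probe sets picked after the values were seen is described only, and its permutation p served only in adjusting that test.

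The members and lists were chosen with earlier results of these data known. Named are all members, up to 12 called genes of the wider list in order of p (others were named after their values were seen), and the 6 genes most like the members. Precision is limited by how many arrays there are, and limma's p-values set each difference of means against the spread between arrays of the same age. Alternatives were no filter, a 60% filter, quantile normalization, median centring, hybridization control scaling (27 probe sets), an offset of 29.7 before the logarithm, no trend, array weights, a replicate block, adjustment for the poly-A spikes (their 3' to 5' ratio over 8 pairs, as a covariate), averaging the probe sets of a gene, the arrays compared alone and leaving out each array. The labels do not say that replicate numbers pair samples across ages, and the main fit used no pairing. Figures used matplotlib 3.10.9 and numpy 2.4.6.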

Additional observations from a re-analysis of the deposited data

Results flagged for a closer look

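The test of the difference between the first and the third week's change singled out GPI, with a difference of 2.06 ± 0.44 on the log2 scale (limma adjusted p = 0.0488). GPI rose in the first week and did not pass in the third. The call was lost under 16 of 23 alternatives, 11 of which left out an array, in a range of 0.00142 to 0.250.

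SLC2A3, the glucose transporter, differed between these weeks by 1.93 ± 0.41 (limma adjusted p = 0.0488). It was at 1.12 ± 0.29 in the first week and at -0.81 ± 0.29 in the third. The call was lost under 18 of 23 alternatives, in a range of 0.0374 to 0.225. No group had the 4 samples that a check for a single outlying array needs.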

How the results depend on the processing

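Of 1552 values of single genes and probe sets under alternative settings, 1373 kept their direction and side of the threshold, 132 lost a call, 25 gained one and 22 changed sign. After adjustment for the poly-A spikes 1 of the 9 genes (GPI) rose in the first week, where 1.19% of all probe sets did. With that covariate GPI, PFKM, TPI1, PGAM2 and LDHA still passed at day 21, while PGK1 and ENO3 did not. On that fit 3.58% of all probe sets rose by day 21, and the F test's count was 0. Leaving out each array gave 4 to 7 rises for day 7 against day 0, where 2.18% to 7.1% of all probe sets rose. The count was 4 without day 7 replicate 1, beside 2.32%. For day 21 against day 0 there were 6 to 8 rises, beside 3.22% to 8.12%, and the F test passed for 4 to 7 genes. The first week exceeded the third in 0 genes with no filter, median centring, no variance trend, the poly-A covariate or the replicate block, in 3 with quantile normalization, and in 0 to 6 when arrays were left out. No pairing by replicate number was seen, though so few arrays cannot exclude one. Same-numbered arrays of different ages had a median correlation of deviations of -0.02, against 0.01 for different numbers. Of the 12 arrays 2 correlated best with their own number. With the replicate block the counts of rises were 6 for day 7 and 7 for day 21 against day 0. On that fit 4.56% and 5.88% of all probe sets rose.

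All sign changes were in values that had not passed, and their cause was not tested. GAPDH's bright probe set was at -0.090 and -0.20 for the first week and -0.0068 and -0.018 for day 21 with quantile normalization and hybridization control scaling, and its other bright probe set at -0.065 with the latter. LDHB at day 21 was at -0.12 with quantile normalization, -0.094 with median centring, -0.37 with hybridization control scaling, -0.038 with array weights and -0.068 with the covariate, and -0.15 to 0.18 when arrays were left out. The difference between weeks in GAPDH was -0.096 with quantile normalization, -0.083 with median centring, -0.27 with hybridization control scaling and -0.060 to 0.12 without single arrays. In ENO3 it was -0.029 on the control scale and in LDHD -0.11 with the covariate. Depth is not defined for arrays, and most probe sets of the 9 genes were far above the filter's limit.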
